A study of Mus musculus with 12 samples.

Results

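The histone genes of mouse embryonic stem cells (ESCs) were followed through differentiation in 12 RNA-seq libraries. Members were chosen by gene symbol: 68 clustered genes whose symbols start with Hist1h, Hist2h, Hist3h or Hist4h, and the 7 variant genes H1f0, H2afx, H2afz, H2afv, H2afy, H3f3a and H3f3b, which makes 75 of the 23336 genes counted. The symbols alone decide membership, although the group was chosen with earlier results of these data known. Histones H2A, H2B, H3 and H4 form the nucleosome core, and the linker histone H1 binds the DNA that enters and leaves it. Clustered histone genes are replication-dependent: they are transcribed mainly in S phase, and most of their mRNAs end in a conserved stem-loop instead of a poly(A) tail. Variant histones are made outside S phase too, mostly from polyadenylated mRNAs, and can replace the clustered forms at any time, and stem cells that leave the self-renewing state commonly cycle more slowly.

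There were 6 groups of 2 libraries, from 3 ESC lines sampled before and after differentiation. The wild-type (WT) female line is Pgk12.1, the other female line is labelled RlimKO (Rlim encodes a ubiquitin ligase studied for its part in X chromosome inactivation), and the WT male line is E14. Every sample carries the strain label C57BL/6. Undifferentiated cells grew with LIF, the cytokine that holds ESCs in the self-renewing state. Differentiated cells spent 3 days as embryoid bodies without LIF and 6 further days in culture at 7.5% oxygen. The labels number the 2 libraries of a group without stating whether separate cultures were used. The p-values therefore reflect the spread of these libraries alone, and that spread may be technical. All 6 groups were fitted with a shared estimate of that spread for each gene. The p-values of 1 line thus also depend on the libraries of the other lines. Each sex and genotype is 1 line, so that sex, genotype and line cannot be told apart.

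Each library held between 2011919 and 5401940 gene counts, of which Rn45s, the ribosomal RNA precursor locus, took between 6.36% and 67.7%. Its share was 39.3% to 55.8% in the undifferentiated libraries. It was 67.7% in replicate 1 of the differentiated RlimKO female group, and 22.5% and 6.36% in the differentiated WT male libraries. Those 2 male libraries also stood further apart than any other pair. Their chi-square per degree of freedom was 25.0 over genes other than Rn45s and Lars2, against 1.86 to 2.33 in the other pairs. Under the shared estimate of spread, this pair can widen the SE of comparisons that do not include it. The SE of the male comparisons can in turn be smaller than this pair alone would give. Replicate 2 of that group, the library with 6.36% Rn45s, also had the lowest Lars2 share, 0.0212% of gene counts. Lars2 took 0.862% in replicate 1 and up to 7.84% in the other libraries. The sample title of replicate 2 carries a library number below those of all other libraries. Whether it was prepared together with them is not known here. The part of that library in the male results was examined only by leaving it out. Levels are given as CPM, gene counts scaled to a common library total after TMM scaling. Rlim itself was counted at 150 and 160 CPM in the undifferentiated and 290 and 298 CPM in the differentiated libraries labelled RlimKO, against 211 to 281 CPM in the 8 WT libraries. The deleted part of Rlim is not given in the sources used here, so a count over the whole gene does not check that label, and the name RlimKO is used below as the label gives it. The pluripotency markers Pou5f1, Nanog, Sox2 and 6 others summed to 1901 to 2270 CPM in undifferentiated and 68.2 to 240 CPM in differentiated libraries. Markers of mesoderm, muscle and fibroblasts summed to 2.92 to 69.5 CPM before and 4616 to 12120 CPM after. All 8 were called higher in both WT lines and 6 in RlimKO female cells (edgeR, adjusted p under 0.05). There the muscle markers Tnnt2 and Myl7 were not called, with log2 changes of 2.05 and -1.97 (adjusted p = 0.0688 and 0.087). Endoderm markers summed to 0.743 to 5.97 CPM before and 118 to 303 CPM after, blood and endothelium markers to 32.4 to 73.2 and 38.9 to 342 CPM, and neural markers to 53.9 to 73.0 and 41.4 to 133 CPM. The last 2 sums mix directions. Of the neural markers Nes rose and Pax6, Sox1 and Tubb3 fell in every line (edgeR, adjusted p under 0.05). Pecam1, which made up most of the blood and endothelium sum in undifferentiated libraries, also fell in every line.

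The stem-loop is shown first because it separates the clustered genes from nearly all others. The letters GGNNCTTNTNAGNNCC, searched on the sense strand of the annotated transcript, were present in 46 of the 68 clustered genes (67.6%), in 1 of the 7 variants (H2afx) and in 89 of 21803 other protein-coding genes (0.408%). In the members that held them they began 24 to 61 bases after the last coding base before the stop codon. Several of the other annotated transcripts end at the stop codon, such as those of Hist2h2bb (381 bases, 378 of them coding) and Hist1h4k (312 and 309). The letters could not be found in such transcripts, so a missing match there does not show that the gene lacks a stem-loop. Others without a match are longer than their coding part, such as those of Hist1h1a (741 bases, 639 of them coding) and Hist2h2be (2620 and 378). The lines below give the stem-loop in capitals with 5 bases on either side, from GENCODE transcripts on GRCm38, for 7 members with different letters or different behaviour in the results.
Hist1h1e: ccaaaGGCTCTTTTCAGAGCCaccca
Hist1h2bk: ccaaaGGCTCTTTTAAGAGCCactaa
Hist1h3g: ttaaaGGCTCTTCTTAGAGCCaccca
Hist1h4a: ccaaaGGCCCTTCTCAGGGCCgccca
Hist1h4d: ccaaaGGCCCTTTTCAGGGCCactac
Hist1h4j: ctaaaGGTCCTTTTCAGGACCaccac
H2afx: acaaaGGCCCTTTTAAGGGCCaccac
The letters shown for Hist1h1e were shared by 26 clustered genes, those for Hist1h4d by 7 and those for Hist1h2bk by 6. All 26 sharers of the Hist1h1e letters belong to the H1, H2A, H2B and H3 classes. The forms with GGCCC or GGTCC belonged to H4 genes, apart from H2afx. Hist1h4a and Hist1h3g were the 2 members whose stem-loop held the letters CTTCT.

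Next, 3 promoters are printed for members with unlike changes below: Hist1h1a, which fell in all 3 lines, Hist1h1e, which was not called on differentiation in any line, and Hist1h2bk, which fell in both WT lines. Each runs from 250 bases before to 50 bases after the annotated start, from RefSeq on GRCm38.p6, in the direction of transcription. They lie at chr13:23763418-23763717 on the plus strand, chr13:23622509-23622808 on the minus strand and chr13:22035571-22035870 on the plus strand. Capitals mark the octamer ATTTGCAT, the H1 box (its letters are AAACACA), the TATA box (letters TATAAA) and the CCAAT box, each searched on both strands. No match overlapped another in these windows.
Hist1h1a: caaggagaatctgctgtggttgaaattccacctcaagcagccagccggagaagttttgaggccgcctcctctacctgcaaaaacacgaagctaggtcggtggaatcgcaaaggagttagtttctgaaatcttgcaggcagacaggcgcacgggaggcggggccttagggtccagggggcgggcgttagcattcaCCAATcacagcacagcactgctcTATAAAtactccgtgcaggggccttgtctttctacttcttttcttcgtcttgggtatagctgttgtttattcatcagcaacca
Hist1h1e: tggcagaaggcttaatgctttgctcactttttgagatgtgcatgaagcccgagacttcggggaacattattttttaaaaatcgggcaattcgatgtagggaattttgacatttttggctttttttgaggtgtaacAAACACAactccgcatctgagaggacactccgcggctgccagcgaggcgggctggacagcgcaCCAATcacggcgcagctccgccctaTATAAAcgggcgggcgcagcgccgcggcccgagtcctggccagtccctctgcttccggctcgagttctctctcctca
Hist1h2bk: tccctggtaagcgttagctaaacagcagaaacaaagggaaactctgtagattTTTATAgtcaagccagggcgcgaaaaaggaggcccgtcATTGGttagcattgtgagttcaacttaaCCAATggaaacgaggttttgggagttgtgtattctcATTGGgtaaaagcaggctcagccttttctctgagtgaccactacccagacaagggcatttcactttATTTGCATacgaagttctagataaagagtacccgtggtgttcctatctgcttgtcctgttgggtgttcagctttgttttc
Promoters were found for 67 of the 75 members. AAACACA was present in 5 of 6 clustered H1 promoters, all but that of Hist1h1a, against 8.22% of all 27025 promoters. ATTTGCAT was present in 7 of 17 H2A and 7 of 16 H2B promoters and in no promoter of H1, H3 or H4 clustered genes, against 1.97% of all. CCAAT was present in every clustered H1, H2A, H2B and H3 promoter found but in 3 of 12 H4 promoters, against 41.1% of all. TATAAA was present in 8 of 12 H4, 11 of 17 H2A, 8 of 16 H2B, 4 of 10 H3 and 4 of 6 H1 promoters, against 15.7% of all. A match describes these letters and is not a measured site.

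Of the 75 members, 64 had enough counts to be tested, 57 clustered genes and all 7 variants. The tested clustered genes comprised 6 of 6 H1, 11 of 18 H2A, 16 of 19 H2B, 12 of 12 H3 and 12 of 13 H4 genes. The symbols also admit Hist3h2bb-ps, a tested H2B member that is annotated as a processed pseudogene without a coding sequence. Hist1h2ao, Hist1h2ap, Hist1h2bq, Hist1h2br, Hist1h4m and Hist2h2aa2 were listed at 0 in every library. Of the 50-base stretches of their transcripts, 0% to 10.2% occur in no other gene, against a median of 48.1% over the 68 clustered genes. How the counting treated reads that match several genes is not given in the sources used here, so levels of near-identical copies are uncertain. Hist2h2bb, with 0% such stretches, Hist1h2af, with 6.00%, and Hist1h4n, with 14.4%, are among those whose reads could come from a copy.

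Before differentiation the 68 clustered genes together reached 3432 and 3963 CPM in WT female, 3993 and 3394 CPM in RlimKO female, and 2881 and 2965 CPM in WT male libraries. After differentiation the same sum was 1840 and 1918 CPM in WT female, 2679 and 2314 CPM in RlimKO female, and 1249 and 830 CPM in WT male libraries. All 6 differentiated libraries lay below all 6 undifferentiated ones, and the male line was the lowest of the differentiated groups and the RlimKO female line the highest. The mean sum went from 3698 ± 376 to 1879 ± 55.2 CPM in WT female, from 3694 ± 424 to 2496 ± 258 CPM in RlimKO female and from 2923 ± 59.4 to 1040 ± 296 CPM in WT male cells (SD, n = 2). These are log2 ratios of -0.98, -0.57 and -1.49. The 7 variants together were less spread: 571 to 720 CPM in undifferentiated and 454 to 512 CPM in differentiated libraries, with log2 ratios of -0.31, -0.55 and -0.46 in WT female, RlimKO female and WT male cells. In these bulk samples fewer cells in S phase, fewer cells of a type and less mRNA per cell cannot be told apart.

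**Figure D1:**
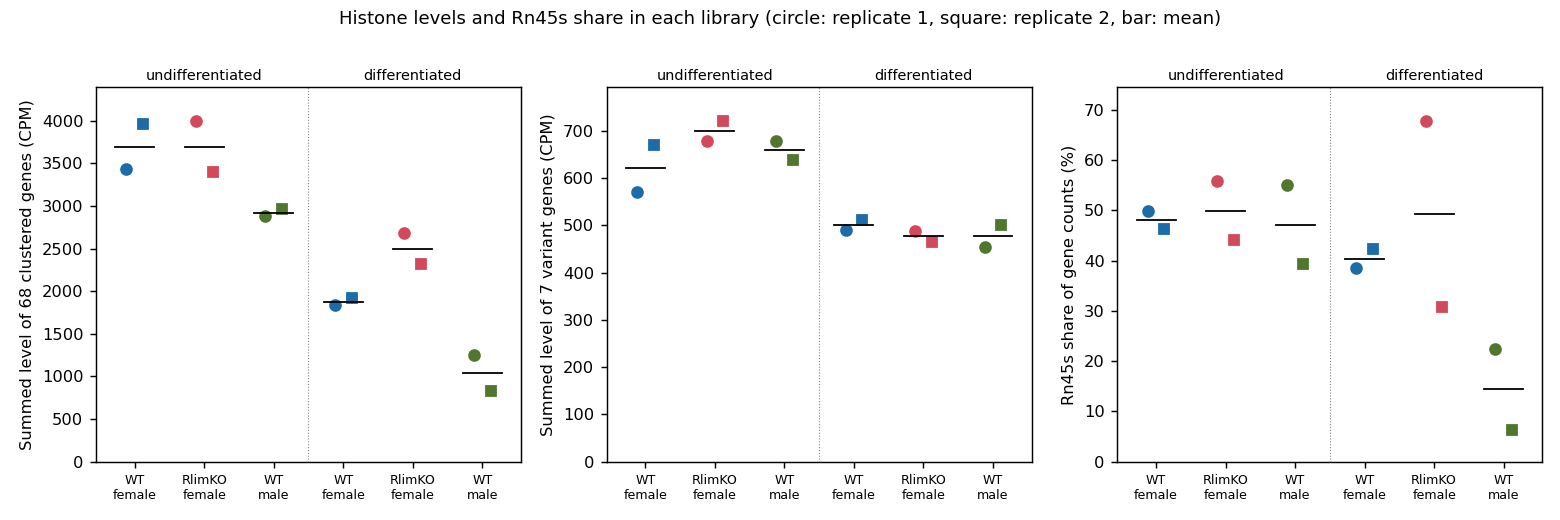
Summed CPM of the 68 clustered genes (left), summed CPM of the 7 variants (middle) and Rn45s share of gene counts in percent (right) in each of the 12 libraries, by group. Points are libraries and bars are means of 2. The clustered sum lies between 2881 and 3993 CPM before and between 830 and 2679 CPM after differentiation, and the 2 differentiated WT male libraries have both the lowest clustered sums and the lowest Rn45s shares.

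The ratio of clustered to variant counts, which needs no scaling between libraries, was 4.25 to 6.01 in undifferentiated libraries. It was 3.76 and 3.75 in differentiated WT female, 5.49 and 4.97 in RlimKO female, and 2.75 and 1.66 in WT male libraries. The RlimKO female libraries thus kept a ratio inside the undifferentiated range, and the others lay below it.

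Among linker histone genes, Hist1h1a fell and H1f0 rose in all 3 lines. Hist1h1a, a gene for a main S-phase linker histone (GENCODE chr13:23763666-23764406), stood at 756 and 758 CPM in WT female, 844 and 736 CPM in RlimKO female and 413 and 423 CPM in WT male undifferentiated libraries. After differentiation it stood at 159 and 169, 163 and 169, and 116 and 48.2 CPM. Every differentiated library was below every undifferentiated one. Hist1h1a fell by 2.21 ± 0.27 on the log2 scale in WT female (SE, adjusted p = 1.21e-05), by 2.25 ± 0.27 in RlimKO female (adjusted p = 1.14e-05) and by 2.37 ± 0.28 in WT male cells (adjusted p = 5.39e-06). It was the called clustered gene with the smallest p in both female lines, and its call held in each of the 12 fits that left out 1 library.

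Hist1h1e, another clustered linker histone gene (chr13:23620629-23622558), lay at 245 and 241, 255 and 213, and 144 and 135 CPM before differentiation in WT female, RlimKO female and WT male cells. It lay at 248 and 217, 333 and 258, and 244 and 137 CPM afterwards. The 2 states overlapped in WT female and WT male cells, while in RlimKO female cells both values after differentiation were the higher ones. It was not called in any line, with log2 changes of -0.07 ± 0.22, 0.33 ± 0.22 and 0.45 ± 0.22 (SE, adjusted p = 0.825, 0.229 and 0.102). Part of its transcript overlaps the annotated span of Hist1h2be on the same strand (chr13:23583670-23621124), so reads there may be split between them or discarded.

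H1f0, the gene for the replacement linker histone that accumulates in cells that stop dividing (chr15:79028450-79030504), rose in all 3 lines. Its level was 24.2 and 36.7, 27.4 and 33.3, and 20.4 and 23.4 CPM before, and 85.0 and 89.6, 71.2 and 65.6, and 93.2 and 110.0 CPM after, in the same order of lines. No differentiated library overlapped an undifferentiated one. The log2 rise was 1.51 ± 0.20 in WT female (adjusted p = 2.94e-05), 1.16 ± 0.21 in RlimKO female (adjusted p = 0.000385) and 2.21 ± 0.20 in WT male cells (adjusted p = 4.63e-07). These calls too held in every fit that left out 1 library.

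Of all counts on the 7 linker histone genes, Hist1h1a took 31.4% to 40.9% in the undifferentiated libraries and 9.26% to 17.7% in the differentiated ones. Hist1h1e took 10.4% to 12.4% before and 22.7% to 31.6% after. H1f0 took 1.21% to 1.85% before and 6.09% to 21.1% after. The ranges of these 3 shares did not overlap between the states. There were 0.290 to 0.348 Hist1h1e counts per Hist1h1a count in every undifferentiated library and 1.29 to 2.84 in every differentiated one. Per kilobase of coding sequence, mean Hist1h1a levels were the highest of the 7 genes in all 3 undifferentiated groups, at 1184, 1236 and 655 CPM per kilobase. On that scale Hist1h1e was the highest in all 3 differentiated groups, at 353, 450 and 290 CPM per kilobase, in WT female, RlimKO female and WT male cells. The second order depends on the length used, since the annotated transcript of Hist1h1e has 1930 bases and that of Hist1h1a 741. Per kilobase of annotated transcript Hist1h1a was the highest in the differentiated groups too, at 221, 224 and 111 CPM per kilobase against 120, 153 and 98.6 for Hist1h1e.

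**Figure D2:**
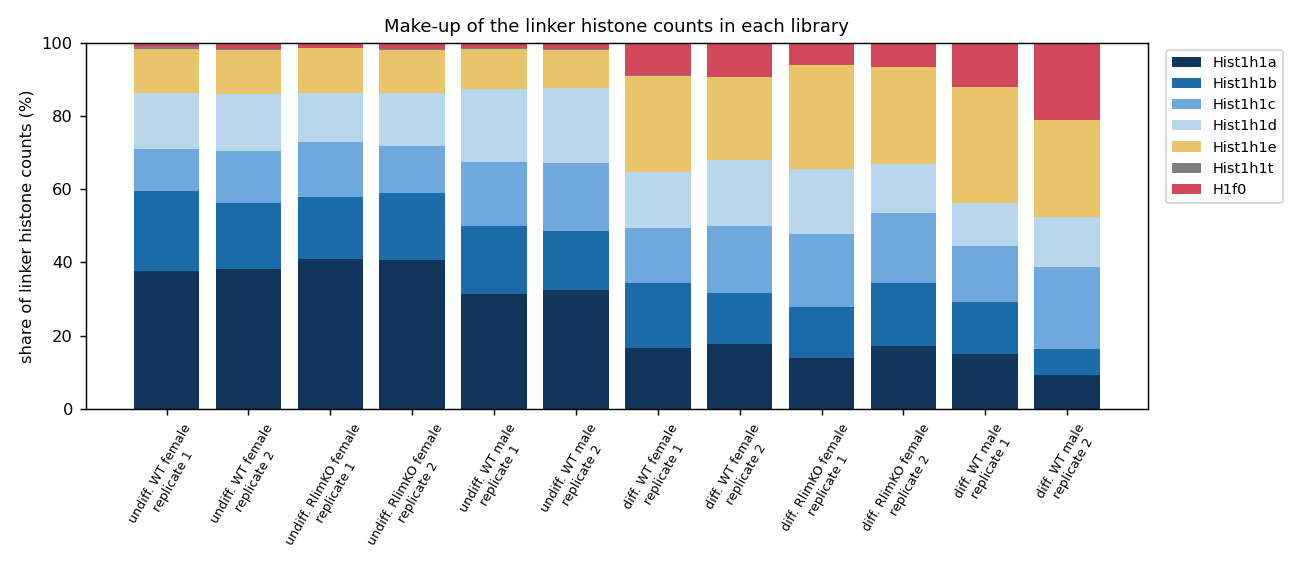
Percentage of the counts on the 7 linker histone genes that each gene took, stacked to 100% for each of the 12 libraries. Hist1h1a takes 31.4% to 40.9% before and 9.26% to 17.7% after differentiation, while Hist1h1e and H1f0 take larger shares in every differentiated library than in any undifferentiated one.

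The other S-phase linker genes fell less or in fewer lines. Hist1h1b fell by 1.42 ± 0.33, 1.04 ± 0.33 and 1.66 ± 0.33 on the log2 scale in WT female, RlimKO female and WT male cells (SE, adjusted p = 0.00247, 0.0174 and 0.000753). Hist1h1d fell by 0.96 ± 0.19, 0.68 ± 0.19 and 1.71 ± 0.19 (adjusted p = 0.000837, 0.00923 and 4.24e-06). Both calls in RlimKO female cells were lost when replicate 2 of its differentiated libraries was left out, with adjusted p-values up to 0.0872 for Hist1h1b, whose call was also lost without replicate 1, and of 0.168 for Hist1h1d. Hist1h1c had log2 changes of -0.68 ± 0.18, -0.38 ± 0.18 and -1.004 ± 0.18 and was called lower in both WT lines (adjusted p = 0.00557 and 0.000231, the first lost without replicate 2 of the undifferentiated or replicate 1 of the differentiated WT female libraries) but not in RlimKO female cells (adjusted p = 0.0892).

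Hist1h1t, the testis linker histone, was scarce, at 1.28 to 7.88 CPM before and 0 to 0.987 CPM after differentiation, and called lower in all 3 lines. With 0 counts in both differentiated RlimKO female libraries against 8 before, it was at least 3.93-fold lower there, taking 3 counts over the group as the floor. Its call in WT male cells (adjusted p = 0.0468) was lost in each of the 12 fits that left out 1 library. In WT female cells the call was lost by DESeq2 and without replicate 1 of the undifferentiated or either differentiated library (adjusted p up to 0.152). In RlimKO female cells it was lost without replicate 1 of the undifferentiated or replicate 2 of the differentiated libraries (up to 0.1). Hist1h2aa, which encodes a testis H2A, behaved alike: 20 counts before and 1 after in WT female cells, a ratio of 44.2 with a counting interval of 7.07 to 1831 (exact, 95%). The RlimKO female line had 16 counts before and 2 after, a ratio of 11.8 with an interval of 2.77 to 106. In WT male cells it went from 13 counts to 0, at least 8.19-fold lower. Its calls were lost in WT female cells without replicate 2 of the undifferentiated libraries, and in RlimKO female cells without replicate 1 of the undifferentiated or either differentiated library (adjusted p up to 0.0905 and 0.196). A list of 7 germ cell genes summed to 29.4 to 63.7 CPM before and 1.61 to 7.16 CPM after. The fall of this sum came from Ddx4, Dazl, Sycp3 and Stra8, which do not mark male germ cells alone. Tnp1, Prm1 and Acrv1 stayed at 0 to 1.75 CPM in every library, with Tnp1 at 0 in all undifferentiated ones. The part of germ cell genes in the result was not tested.

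Across all clustered genes, 23 of 57 fell and 0 rose in WT female cells, where 22.2% of all 12814 tested genes fell and 26.5% rose. In RlimKO female cells 11 fell and 4 rose, against 21.6% and 26.4% of all genes. In WT male cells 44 fell and 0 rose, against 25.4% and 28.7% of all genes. The counts of 0 come from edgeR's quasi-likelihood test, which gave 0 rising clustered genes in both WT lines at an unadjusted p under 0.05 as well, as did DESeq2 after adjustment. The median log2 change of the 57 genes was -0.70 in WT female, -0.28 in RlimKO female and -1.81 in WT male cells, beside 0.09, 0.10 and 0.05 for all tested genes, and it was the same with the genes at 0 set to their bounds. The differentiated libraries lay wholly below the undifferentiated ones for 39, 21 and 48 of the 57 genes in these lines, against 36.2%, 35.6% and 36.9% of all tested genes. Hist1h1a, Hist1h1b, Hist1h1d, Hist1h1t, Hist1h2aa, Hist1h2bc, Hist1h3g and Hist1h4d were called lower in all 3 lines, 22 genes in WT male cells alone and 10 in none. The same overlap was not counted over all tested genes, so whether it is particular to the clustered genes is not known.

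Single libraries moved the female counts. The 23 genes lower in WT female cells became 10 without replicate 2 of the undifferentiated WT female libraries, and 12 and 14 without replicates 1 and 2 of the differentiated ones. In WT female cells 1 clustered gene was called higher without either of the 2 differentiated WT male libraries. The 11 genes lower in RlimKO female cells became 1 without replicate 2 of its differentiated libraries, 7 without replicate 1, and 4 without replicate 1 of its undifferentiated libraries. They became 20 and 18 without replicates 1 and 2 of the differentiated WT male libraries. The 4 genes higher there became 0 without replicate 2 of the undifferentiated RlimKO female libraries, and 2 without replicate 1 of the differentiated RlimKO female or replicate 2 of the differentiated WT female libraries. In WT male cells the count of 44 stayed between 35 and 47 in all 12 such fits, and 2 genes were called higher without replicate 2 of its differentiated libraries.

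**Figure D3:**
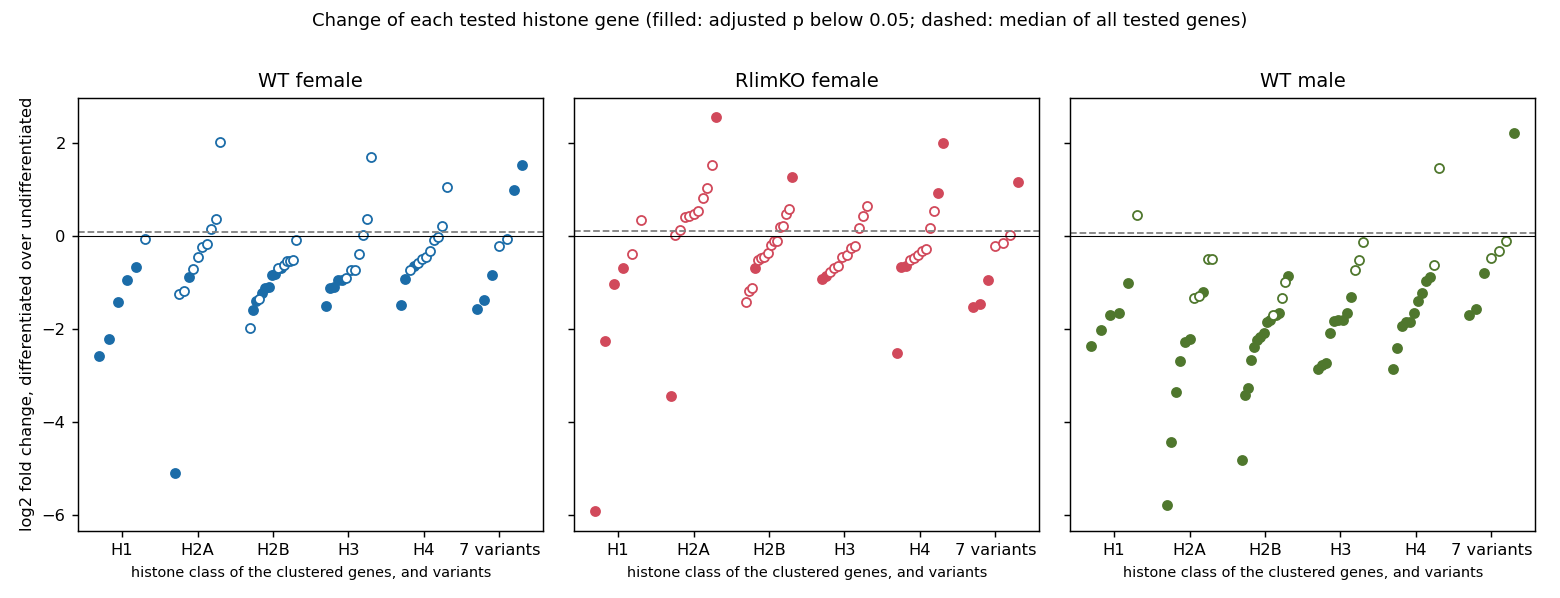
Log2 fold change on differentiation of each of the 57 tested clustered genes, by histone class, and of the 7 variants, in each line. Filled points passed an adjusted p of 0.05, open points did not, and the dashed line is the median of all tested genes. In WT male cells 44 of 57 clustered points are filled and lower, against 23 in WT female and 11 in RlimKO female cells.

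Of the 11 tested H2A genes, 2 fell in WT female, 1 in RlimKO female and 7 in WT male cells, against 22.2%, 21.6% and 25.4% of all tested genes. The female counts are near or below that share. Hist3h2a, the H2A gene with the most counts, had 31.5 and 41.0, 45.5 and 23.4, and 62.0 and 59.5 CPM before and 31.0 and 30.2, 32.9 and 40.2, and 25.3 and 27.5 CPM after differentiation. The states overlapped in RlimKO female cells only, and it was called lower in WT male cells alone, where it fell by 1.20 ± 0.24 (adjusted p = 0.000741). Hist1h2ak fell by 2.68 ± 0.31 in WT male cells (adjusted p = 4.53e-06), from 27.9 and 32.9 CPM to 5.05 and 4.51 CPM. Its change was -0.89 ± 0.30 in WT female (adjusted p = 0.0226, lost without any 1 of the 4 WT female libraries) and 0.03 ± 0.32 in RlimKO female cells (adjusted p = 0.952). Hist1h2af went from 12.3 and 16.1 CPM to 1.38 and 0.215 CPM in WT male cells, where it fell by 4.43 ± 0.60 (adjusted p = 2.21e-05), and was not called in the female lines. In RlimKO female cells 10 of the 11 H2A genes had positive log2 changes, beside 6822 of all 12814 tested genes. The summed H2A level there was 109 and 81.4 CPM before and 161 and 96.1 CPM after. The 161 CPM belong to replicate 1, the library with 67.7% Rn45s, and replicate 2 lay between the undifferentiated values. Only Hist2h2ab was called higher, with 1.75 and 0.426 CPM before and 6.91 and 5.36 CPM after (log2 change 2.54 ± 0.87, adjusted p = 0.0255). That call was lost without replicate 2 of the undifferentiated, without either differentiated RlimKO female library, and without replicate 2 of the differentiated WT female libraries, at adjusted p-values up to 0.253.

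Of the 16 tested H2B genes, 8 fell in WT female, 1 in RlimKO female and 13 in WT male cells. Beside the 22.2%, 21.6% and 25.4% of all genes that fell, the RlimKO female count is low and the WT counts are high. Hist2h2bb, the H2B gene with the most counts (chr3:96269752-96270132), had 287 and 347 CPM before and 137 and 155 CPM after differentiation in WT female cells. The RlimKO female line had 298 and 312 against 208 and 231 CPM, and in WT male cells 286 and 328 against 90.7 and 55.6 CPM. The states did not overlap in any line. It fell by 1.12 ± 0.20 in WT female (adjusted p = 0.000313) and by 2.08 ± 0.20 in WT male cells (adjusted p = 9.22e-07), and its change of -0.47 ± 0.20 in RlimKO female cells did not pass (adjusted p = 0.0596). Hist1h2bb was called only in WT male cells, at a fall of 0.86 ± 0.33 (adjusted p = 0.0383), and in 7 of the 12 fits that left out 1 library. That call was also lost with RLE scaling, by DESeq2, on the libraries compared alone and without both libraries of extreme Rn45s share. Hist1h2bm fell by 2.39 ± 0.25 in WT male cells (adjusted p = 1.96e-06) and by 0.83 ± 0.25 in WT female cells (adjusted p = 0.0124), where the call was lost without replicate 2 of the undifferentiated or replicate 1 of the differentiated libraries (up to 0.118). Its levels went from 47.5 and 41.7 to 10.3 and 7.09 CPM in the male and from 32.6 and 39.6 to 18.4 and 22.5 CPM in the WT female line. Hist1h2bc fell in all 3 lines, by 1.22 ± 0.27, 0.69 ± 0.27 and 1.65 ± 0.28 (adjusted p = 0.00162, 0.0452 and 0.000172), and the call in RlimKO female cells was kept in 7 of the 12 fits that left out 1 library.

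Hist1h2bk, whose promoter is printed above, had 34.1 and 64.8 CPM before and 16.2 and 21.5 CPM after differentiation in WT female cells. The RlimKO female line had 30.4 and 39.2 against 35.1 and 27.3 CPM, and in WT male cells 31.9 and 37.7 against 7.12 and 4.404 CPM. The states were apart in both WT lines and mixed in the line labelled RlimKO. It fell by 1.41 ± 0.31 in WT female (adjusted p = 0.00164) and by 2.66 ± 0.33 in WT male cells (adjusted p = 1.08e-05), against -0.19 ± 0.31 in RlimKO female cells (adjusted p = 0.648). It was named for its promoter after its values were seen. Hist1h2be moved the other way in RlimKO female cells, from 23.4 and 16.6 to 40.4 and 53.6 CPM, a rise of 1.27 ± 0.27 (adjusted p = 0.00162), and fell by 1.69 ± 0.26 in WT male cells (adjusted p = 7.21e-05). Its span overlaps Hist1h1e as stated above, and its call in RlimKO female cells was lost without replicate 2 of the undifferentiated libraries (adjusted p = 0.0646).

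Of the 12 tested H3 genes, 5 fell in WT female, 2 in RlimKO female and 9 in WT male cells (22.2%, 21.6% and 25.4% of all genes), so that the RlimKO female count is near the share of all genes. Hist1h3g had 46.2 and 42.9, 73.0 and 49.0, and 51.3 and 58.9 CPM before, and 22.1 and 24.4, 40.9 and 24.4, and 10.3 and 6.88 CPM after differentiation in WT female, RlimKO female and WT male cells. The states were apart in each line. It fell by 0.94 ± 0.27, 0.93 ± 0.27 and 2.72 ± 0.28 (adjusted p = 0.0104, 0.0110 and 1.73e-06). Its calls in the female lines were lost without replicate 1 of the differentiated WT female libraries (adjusted p = 0.0762), and without replicate 1 of the undifferentiated or replicate 2 of the differentiated RlimKO female libraries (up to 0.187). Hist1h3e, the H3 gene with the most counts, fell by 0.94 ± 0.31 in WT female (adjusted p = 0.0219, lost without replicate 2 of the undifferentiated or replicate 1 of the differentiated libraries) and 1.32 ± 0.31 in WT male cells (adjusted p = 0.00237). Its levels in the RlimKO female libraries were 93.4 and 77.2 CPM before and 106 and 43.7 CPM after, and the 2 differentiated libraries lay on either side of the others. Hist1h3d fell by 2.78 ± 0.30 in WT male cells (adjusted p = 2.39e-06). Hist1h3c was called lower in WT female cells alone, at 1.51 ± 0.35 below (adjusted p = 0.00235).

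Of the 12 tested H4 genes, 3 fell in WT female, 3 in RlimKO female and 10 in WT male cells. Both female counts are about the 22.2% and 21.6% of all genes that fell, and the male count stands beside 25.4%. Hist1h4d, the H4 gene with the most counts (chr13:23581598-23582735), had 164 and 258, 251 and 196, and 193 and 168 CPM before and 107 and 115, 138 and 146, and 54.0 and 46.2 CPM after differentiation. The states were apart in each line. It fell by 0.93 ± 0.20, 0.65 ± 0.20 and 1.85 ± 0.20 (adjusted p = 0.00131, 0.0149 and 2.92e-06), and the call in RlimKO female cells was lost without either differentiated library or without replicate 1 of the undifferentiated ones (up to 0.0864). Hist4h4, the lone member on chromosome 6, had 42.5 and 71.5, 64.2 and 55.4, and 63.1 and 81.1 CPM before and 69.5 and 62.0, 89.8 and 82.9, and 49.1 and 30.4 CPM after. It fell by 0.89 ± 0.25 in WT male cells (adjusted p = 0.00718) and was not called in WT female (0.20 ± 0.25, adjusted p = 0.535) or RlimKO female cells (0.53 ± 0.26, adjusted p = 0.1). The male call was lost without replicate 2 of the undifferentiated libraries (adjusted p = 0.0984).

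Hist1h4a and Hist1h4j rose in RlimKO female and fell in WT male cells. Hist1h4a had 23.9 and 14.1 CPM before and 30.8 and 38.8 CPM after in RlimKO female, against 24.9 and 24.3 CPM before and 4.59 and 2.58 CPM after in WT male cells. Its log2 changes were 0.91 ± 0.34 (adjusted p = 0.0374) and -2.85 ± 0.37 (adjusted p = 1.44e-05). The rise was called in only 4 of the 12 fits that left out 1 library, while the fall was called in all 12. For Hist1h4j the changes were 1.98 ± 0.61 (adjusted p = 0.0143) and -1.40 ± 0.55 (adjusted p = 0.0442), called in 10 and in 4 of those fits. Hist1h4k fell by 2.40 ± 0.26 in WT male cells (adjusted p = 2.53e-06).

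Among the variants, H2afx and H2afz fell in all 3 lines. H2afx encodes H2A.X, which is phosphorylated at DNA breaks, and its transcript holds the stem-loop printed above. Its level was 97.1 and 114, 157 and 136, and 129 and 116 CPM before, and 37.1 and 33.7, 78.1 and 28.8, and 33.5 and 42.0 CPM after differentiation in WT female, RlimKO female and WT male cells. No library overlapped between the states, and replicate 1 of the differentiated RlimKO female group, the library with 67.7% Rn45s, was the highest of the differentiated ones. H2afx fell by 1.58 ± 0.31, 1.52 ± 0.31 and 1.69 ± 0.30 (adjusted p = 0.000759, 0.00107 and 0.000252). H2afz, the gene for H2A.Z, which marks promoters, had 146 and 214, 169 and 203, and 112 and 127 CPM before and 64.7 and 74.2, 60.6 and 73.2, and 45.7 and 35.9 CPM after. It fell by 1.38 ± 0.20, 1.46 ± 0.21 and 1.56 ± 0.20 (adjusted p = 5.67e-05, 4.21e-05 and 1.49e-05), again with no overlap between the states.

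Of the remaining variants, H2afv changed in both female lines and H2afy and H3f3a in 1 line each. H2afv, which encodes a close relative of H2A.Z, fell by 0.85 ± 0.26 in WT female and 0.94 ± 0.27 in RlimKO female cells (adjusted p = 0.0145 and 0.0095), and had a change of -0.47 ± 0.23 in WT male cells (adjusted p = 0.102). The call in WT female cells was lost without replicate 1 of the undifferentiated or replicate 2 of the differentiated libraries, and that in RlimKO female cells without either differentiated library, at adjusted p-values up to 0.0835 and 0.0539. H2afy, the gene for macroH2A1, a histone enriched on the inactive X chromosome, had 34.7 and 42.0 CPM before and 70.2 and 82.7 CPM after in WT female cells, a rise of 0.99 ± 0.20 (adjusted p = 0.00105). In RlimKO female cells it had 44.4 and 45.6 against 44.1 and 47.1 CPM and in WT male cells 69.8 and 56.9 against 68.7 and 49.7 CPM, with changes of 0.02 ± 0.21 and -0.10 ± 0.19 (adjusted p = 0.939 and 0.670). The difference of these changes between lines was not called for any variant.

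H3f3a and H3f3b both encode H3.3, the variant H3 deposited outside S phase. H3f3a fell in WT male cells alone, from 100 and 102 to 61.3 and 55.9 CPM, by 0.79 ± 0.15 (adjusted p = 0.000507), and had changes of -0.22 ± 0.16 and -0.15 ± 0.16 in WT female and RlimKO female cells (adjusted p = 0.262 and 0.453). H3f3b was not called in any line, at 133 to 185 CPM before and 112 to 176 CPM after differentiation. Of the 7 variants 5 were called in WT female, 4 in RlimKO female and 4 in WT male cells, where 48.7%, 48.0% and 54.0% of all tested genes were called in either direction. The 4 of 7 in the latter lines is thus near the share of all genes. Leaving out 1 library gave 4 to 5, 3 to 4 and 4 to 5.

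**Figure D4:**
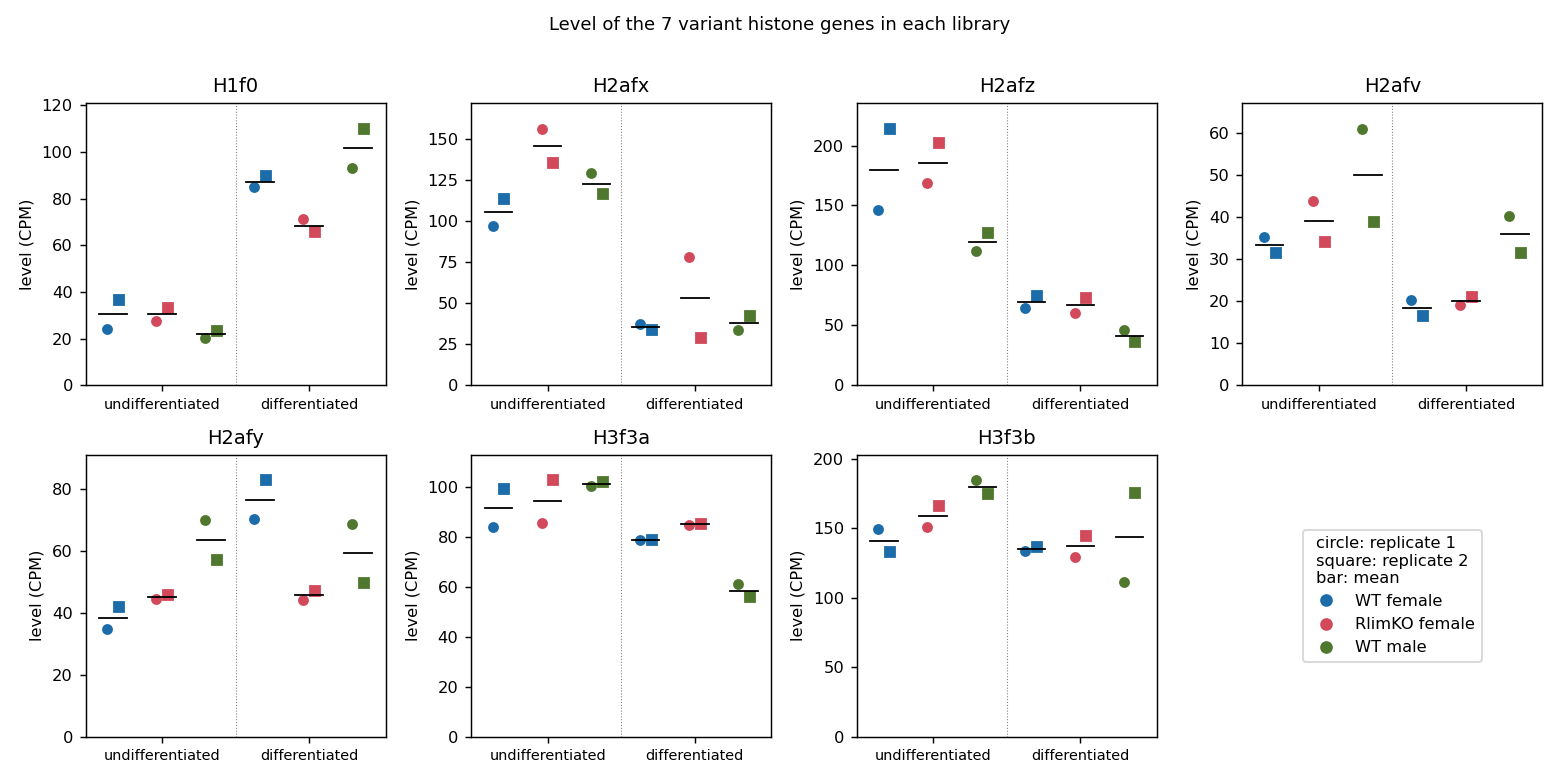
CPM of each variant histone gene in the 12 libraries, by state and line, with each axis starting at 0. Points are libraries and bars are means of 2. H1f0 is higher and H2afx and H2afz are lower in every differentiated library than in any undifferentiated library, and H2afy is higher after differentiation in the WT female line.

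The female lines were then set against each other, as the study compares lines within each state. In undifferentiated cells 0 of the 64 tested members were called between the lines labelled RlimKO and WT female by edgeR, with 1 at an unadjusted p under 0.05 and 0 called by DESeq2, against 0.242% of all genes called. In differentiated cells 0 were called by edgeR and 1 by DESeq2, against 2.59% of all genes. There, 18 members had an unadjusted p under 0.05, 16 of them higher in the line labelled RlimKO, and the 57 clustered genes had a median log2 difference of 0.54, beside 0.00 for all genes. Fitted on the 4 libraries compared alone, 22 members were called, and 13 and 14 were called without replicates 1 and 2 of the differentiated WT male libraries. The difference in the change on differentiation between these lines was called for 0 members by edgeR and by DESeq2, with 7 at an unadjusted p under 0.05, against 0.203% of all genes. It was called for 6 members on the 8 libraries of the female lines alone, and for 5 and 6 without replicates 1 and 2 of the differentiated WT male libraries.

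Both female lines were also compared with the male line, and these comparisons share the male libraries. In undifferentiated cells 4 members were higher in WT female than in WT male libraries and none lower, against 3.12% of all genes higher. They were Hist1h1e (0.81 ± 0.22, adjusted p = 0.0451), Hist1h2bh (1.65 ± 0.38, adjusted p = 0.0190), Hist1h3c (1.41 ± 0.35, adjusted p = 0.0281) and Hist1h4n (3.67 ± 0.69, adjusted p = 0.00684). Hist1h4n had 13.7 and 11.9 CPM in WT female, 23.9 and 12.8 CPM in RlimKO female and 1.11 and 0.882 CPM in WT male undifferentiated libraries. The male values lay far below both female lines. In RlimKO female cells 5 members were higher than in WT male (4.6% of all genes), the same 4 and Hist1h1a, and Hist1h2be was lower (5.41%). The counts of 4 and 6 became 14 and 19 when fitted on the libraries compared alone.

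Without replicate 1 or 2 of the differentiated WT male libraries the 4 became 15 and 14 and the 6 became 20 and 19. The 4 fell to 0 without replicate 1 of the undifferentiated WT female or replicate 2 of the undifferentiated WT male libraries, and to 1 without the other undifferentiated library of either line. The 6 became 1 or 2 without replicate 2 or 1 of the undifferentiated WT male libraries, 3 or 2 without replicate 1 or 2 of the undifferentiated RlimKO female libraries, and 3 without either differentiated RlimKO female library or replicate 1 of the differentiated WT female libraries.

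In differentiated cells 26 clustered genes and H2afz were higher in WT female than in WT male libraries (4.67% of all genes), and H2afv was lower (4.29%). In RlimKO female libraries 39 clustered genes, H2afz and H3f3a were higher than in WT male (5.65%), and H2afv was lower (5.97%). The median log2 difference of the 57 clustered genes was 1.16 and 1.81, beside -0.02 and -0.04 for all genes. Cell type markers also differed between these libraries. The mesoderm, muscle and fibroblast markers summed to 9130 and 7963 CPM in WT female, 12120 and 11850 CPM in RlimKO female, and 11230 and 4616 CPM in WT male libraries. Blood and endothelium markers (4 genes) summed to 105 and 91.7, 131 and 159, and 342 and 38.9 CPM, and neural markers (4 genes) to 121 and 133, 41.4 and 43.9, and 82.7 and 46.3 CPM, in the same order. Nes alone made up most of each neural sum, at 111 and 122, 39.3 and 40.5, and 76.7 and 45.65 CPM. Within the male pair, Hbb-bh1, an embryonic globin, stood at 103 and 2.69 CPM and Col3a1, a fibroblast collagen, at 2776 and 247 CPM. Afp, an endoderm marker, stood at 58.6 and 63.6 CPM in WT female, 4.25 and 5.85 CPM in RlimKO female and 37.9 and 108 CPM in WT male libraries. The part of these markers in the differences between lines was not tested. Hist1h4a differed most clearly by p in WT female cells, at 18.7 and 28.1 CPM against 4.59 and 2.58 CPM in WT male, a difference of 2.77 ± 0.36 (adjusted p = 0.000497), and by 3.37 ± 0.37 in RlimKO female cells (adjusted p = 0.000115). Fitted on the 4 libraries compared alone, edgeR called 0 members in either comparison, while on all libraries DESeq2 called 25 and 37, and 39 and 55 had an unadjusted p under 0.05 in edgeR. With Rn45s as a covariate 5 and 12 were called. Leaving out replicate 1 or 2 of the differentiated WT female libraries brought the 28 called in the first comparison to 12 or 5, and leaving out replicate 1 of the differentiated WT male libraries to 49. The 42 of the second became 20 and 27 without replicates 1 and 2 of the differentiated RlimKO female libraries.

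The change on differentiation itself differed between WT female and WT male cells for 8 clustered genes, all with the larger fall in the male line (0.882% of all genes higher in this direction). They were Hist1h2af, Hist1h2be, Hist1h2bg, Hist1h2bm, Hist1h3d, Hist1h3g, Hist1h4a and Hist1h4k. Between RlimKO female and WT male cells it differed for 18 clustered genes in that direction (1.51%) and for Hist1h4n in the other (1.09%). Hist1h4n fell by 2.51 ± 0.60 in RlimKO female cells (adjusted p = 0.00315, lost at 0.0703 without replicate 2 of its differentiated libraries) and had a change of 1.46 ± 0.74 in WT male cells (adjusted p = 0.109). The median difference in change of the 57 genes was 1.06 and 1.48, beside 0.10 and 0.09 for all genes. Fitted on the libraries of the lines compared alone, edgeR called 0 and 6 members, while on all libraries DESeq2 called 7 and 12, and 31 and 43 had an unadjusted p under 0.05 in edgeR. With Rn45s as a covariate 3 and 10 were called. The 8 became 35 and 19 without replicates 1 and 2 of the differentiated WT male libraries, and between 0 and 5 without any 1 of the undifferentiated WT or RlimKO female, undifferentiated WT male or differentiated WT female libraries. The 19 became 41 and 31 without those same differentiated male libraries and between 5 and 12 without any 1 of the other 10.

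Rn45s share moved with the clustered sum in part of the pairs. In the differentiated RlimKO female pair the library with 67.7% Rn45s had a clustered sum of 2679 CPM and the one with 30.8% had 2314 CPM. In the differentiated WT male pair the sums were 1249 CPM at 22.5% and 830 CPM at 6.36%. The library with the larger share had the larger sum in 4 of the 6 pairs, and the smaller one in the undifferentiated WT female and WT male pairs. Within groups, 45 of the 57 clustered genes (79.0%) had a positive slope on the log2 ratio of Rn45s to other counts, against 48.0% of all tested genes and 4 of the 7 variants. Without the 2 libraries of most extreme share it was 29 of 58 tested clustered genes. With Rn45s as a covariate, chosen after the data were seen, 29 clustered genes were called lower and 2 higher in WT male cells, in place of 44 and 0. Of the members named above, H2afx, Hist1h1b, Hist1h1t, Hist1h2aa, Hist1h2bb, Hist1h3e and Hist4h4 then lost their calls in WT male cells, and those of Hist1h1a, H1f0 and H2afz held in every line. In both female lines the counts lower changed by less than 1.5 times under that covariate. Whether Rn45s share contributes to the lower clustered level in the differentiated male libraries was not tested beyond these values.

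**Figure D5:**
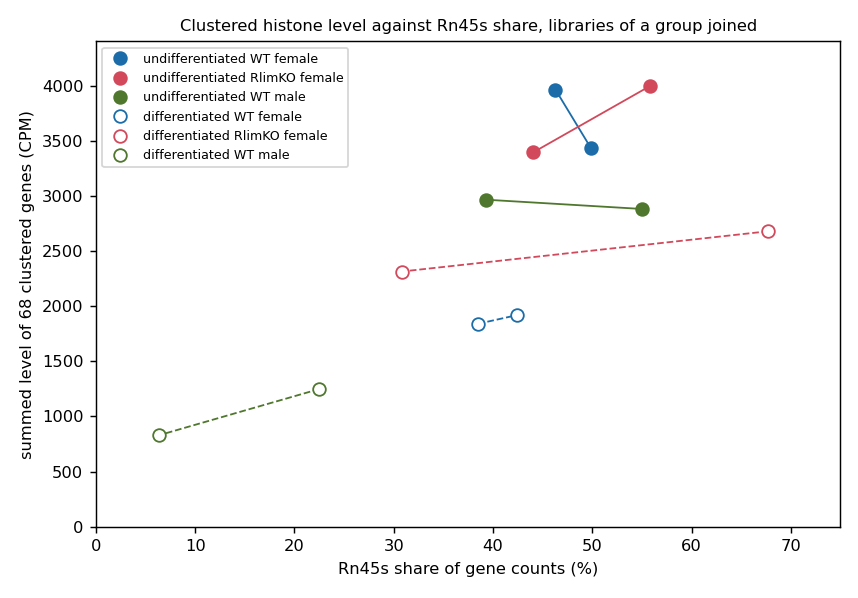
Summed CPM of the 68 clustered genes against the Rn45s share of gene counts, with the 2 libraries of a group joined by a line. Filled points are undifferentiated and open points differentiated libraries. In 4 of the 6 pairs the library with more Rn45s has the higher clustered sum, and the 2 differentiated WT male libraries lie at the lowest share and the lowest sum.

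The clustered genes were next divided by properties that the symbols do not fix. Annotated transcripts with the stem-loop and 100 or fewer bases after it had a median log2 change of -0.77, -0.23 and -1.83 in WT female, RlimKO female and WT male cells (18 tested of 23). Those with over 100 bases after it had medians of -0.53, -0.23 and -1.66 (23 of 23), and those without the letters -0.87, -0.39 and -1.97 (16 of 22). Several transcripts of this last kind are annotated only up to the stop codon, while others, such as those of Hist1h1a and Hist2h2be, are longer than their coding part. The kind therefore mixes limits of the annotation with longer transcripts in which the letters were not found. It does not stand for genes without a stem-loop. The kind of reverse transcription primer is not given beyond its place at the 3′ end, so whether the library preparation needs a poly(A) tail is unknown here. Median counts summed over the 12 libraries were 220 for the first kind, 949 for the second and 162 for the third.

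Of the 68 genes, 34 had at least 50% of their 50-base stretches unique to them and 34 had fewer. The first kind (33 tested) had median log2 changes of -0.73, -0.48 and -1.69 in WT female, RlimKO female and WT male cells, and the second (24 tested) -0.70, -0.04 and -1.97. In RlimKO female cells 9 of the 33 and 2 of the 24 fell, beside 21.6% of all genes, and in WT male cells 26 and 18 fell, beside 25.4%. On chromosome 13 the Hist1 genes formed 2 stretches more than 200 kb apart, chr13:21715763-22043676 with 23 genes (15 tested) and chr13:23531050-23934851 with 31 (31 tested). Their median changes were -0.83, -0.12 and -2.09 for the first and -0.70, -0.45 and -1.71 for the second. H2B genes with and without the octamer had medians of -0.83 and -0.84 in WT female, -0.19 and -0.12 in RlimKO female and -2.08 and -2.16 in WT male cells (7 tested genes each). H2A genes with and without it (6 and 5 tested) had medians of -0.94 and -0.18 in WT female, 0.65 and 0.42 in RlimKO female and -1.31 and -2.68 in WT male cells. The order of the 2 kinds of H2A gene thus differed between the WT lines. In each of these divisions the order of the 3 lines was the same, with the male line lowest and the RlimKO female line highest.

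Genes that act on histone mRNAs or with histones were followed from lists. Of 22 S-phase genes all called members were lower: 19 in WT female, 13 in RlimKO female and 19 in WT male cells, where 22.2%, 21.6% and 25.4% of all genes were lower. Their median log2 changes were -1.13, -0.93 and -1.34. Ccne1, which encodes cyclin E1 and drives entry into S phase, fell by 2.64 ± 0.17, 2.90 ± 0.18 and 2.77 ± 0.17 (adjusted p = 3.4e-08, 1.96e-08 and 1.32e-08). Pcna, the sliding clamp of DNA polymerase, fell by 1.36 ± 0.16, 1.29 ± 0.16 and 2.15 ± 0.16 (adjusted p = 7.95e-06, 1.69e-05 and 7.57e-08). Pola1, a DNA polymerase subunit, fell by 2.14 ± 0.23, 1.88 ± 0.24 and 2.58 ± 0.24 (adjusted p = 3.97e-06, 1.57e-05 and 6.53e-07).

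Of 16 genes for histone mRNA transcription and 3′ end processing, 8 fell and 1 rose in WT female, 6 fell and 1 rose in RlimKO female, and 11 fell in WT male cells, with medians of -0.48, -0.24 and -0.84. Of all genes 22.2%, 21.6% and 25.4% fell and 26.5%, 26.4% and 28.7% rose. Zfp473, whose product binds the processing complex, fell by 2.76 ± 0.30, 1.52 ± 0.31 and 1.72 ± 0.27 (adjusted p = 3.29e-06, 0.000937 and 8.52e-05). Slbp, which encodes the protein that binds the stem-loop printed above, had 53.0 and 41.0, 38.0 and 29.0, and 51.6 and 59.1 CPM before and 25.3 and 28.9, 35.6 and 33.4, and 25.7 and 23.3 CPM after differentiation. The states were apart in both WT lines and mixed in RlimKO female cells. Its log2 changes were -0.80 ± 0.21 (adjusted p = 0.00551), 0.05 ± 0.22 (adjusted p = 0.866) and -1.18 ± 0.20 (adjusted p = 0.000158), and the values in the female lines are given because they were seen to differ. Npat, the S-phase activator of histone genes, was not called in any line, with changes of -0.10 ± 0.17, 0.03 ± 0.17 and 0.22 ± 0.16 (adjusted p = 0.628, 0.910 and 0.246).

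Of 24 tested histone chaperone and deposition genes, 12 fell and 1 rose in WT female, 10 and 2 in RlimKO female, and 17 and 2 in WT male cells, beside those same shares of all genes, with medians of -0.51, -0.34 and -0.63. Nasp, a chaperone of H3 and H4, fell by 1.73 ± 0.19, 1.64 ± 0.19 and 2.25 ± 0.19 (adjusted p = 3.61e-06, 6.9e-06 and 2.46e-07). Chaf1b, a subunit of the assembly factor that follows the replication fork, fell by 1.82 ± 0.28, 1.91 ± 0.30 and 2.66 ± 0.28 (adjusted p = 0.000105, 0.000116 and 1.84e-06). Hat1, which acetylates new H4, fell by 1.95 ± 0.23, 1.63 ± 0.23 and 1.91 ± 0.22 (adjusted p = 6.9e-06, 4.6e-05 and 4.58e-06). Of 4 tested variant histone genes outside the symbols used here, 1 fell and 1 rose in WT female, 2 fell in RlimKO female, and 2 fell and 1 rose in WT male cells. In these lines 22.2%, 21.6% and 25.4% of all genes fell and 26.5%, 26.4% and 28.7% rose. Cenpa, the centromeric H3, fell in all 3 lines, by 1.20 ± 0.26, 0.72 ± 0.27 and 0.82 ± 0.24 (adjusted p = 0.00166, 0.0366 and 0.00968). H2afy2, the gene for macroH2A2, rose by 0.68 ± 0.26 in WT female and 0.72 ± 0.24 in WT male cells (adjusted p = 0.0407 and 0.0218) and had a change of 0.46 ± 0.25 in RlimKO female cells (adjusted p = 0.145). H2afj fell by 1.48 ± 0.56 in RlimKO female and 1.49 ± 0.49 in WT male cells (adjusted p = 0.0416 and 0.0185), and H1fx was not called in any line.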

How the data were processed

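The data are gene-level read counts of 12 libraries. Per the submitters' processing notes the authors used bcl2fastq 2.16.0.10, TopHat2 2.0.12, HTSeq 0.6.1p1, edgeR 3.10.0 and genome mm10. The deposited values are whole-number counts, not normalized, and rows that name no gene stayed out (reads outside any feature were 45.4% to 53.3% of gene counts and these rows together). The annotation, strand setting and treatment of multiply matching reads are not given in the sources used here, and the labels describe no step that marks strand.

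Counts of all genes and all 6 groups were fitted together with edgeR 4.0.16 (R 4.3.3): filterByExpr with a minimum count of 10, TMM scaling, and the quasi-likelihood F test with Benjamini-Hochberg adjustment over 12814 tested genes, called at an adjusted p under 0.05. The SE of a log2 change is its size divided by the square root of F. CPM is computed per TMM-scaled library. Counting error alone sets the intervals (exact binomial, 95%) and floors (3 counts). Named genes are the 7 variants, the 2 clustered genes of each class with the highest mean CPM and, in each comparison, up to 5 called members of smallest p in each direction, and up to 4 called genes of each other list. Members and lists were chosen with earlier results of these data known. Fits were tested on simulated data. Alternatives were RLE scaling, other filters, omission of Rn45s and Lars2, DESeq2 1.42.0, the libraries compared alone, a replicate block, omission of libraries, and, chosen after seeing the data, Rn45s as a covariate.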

Additional observations from a re-analysis of the deposited data

Results flagged for a closer look

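The results given here are members whose change on differentiation differed between lines by the interaction test, with the difference in log2 change and the 5 of smallest p in each direction. Between WT female and WT male cells the change of Hist1h4a was higher by 2.83, that of Hist1h2af by 3.97, Hist1h3d by 2.05, Hist1h4k by 1.75 and Hist1h3g by 1.78. Between RlimKO female and WT male cells the change of Hist1h2be was higher by 2.96, that of Hist1h4a by 3.76, Hist1h2bg by 2.70, Hist1h2bm by 2.57 and Hist1h4k by 2.57. Both comparisons use the same 4 WT male libraries. Hist1h4n went the other way between RlimKO female and WT male cells, at -3.96, from 23.9 and 12.8 CPM to 5.84 and 1.46 CPM in RlimKO female cells and from 1.11 and 0.882 CPM to 4.13 and 1.72 CPM in WT male cells. Fitted on the lines compared alone, edgeR called 0 members in the first comparison, where on all libraries 31 had an unadjusted p under 0.05 in edgeR and DESeq2 called 7, and 6 in the second.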

How the results depend on the processing

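No call of a named member on differentiation reversed direction under any alternative run. Comparisons between lines and members not named were outside this tally. Of 1514 alternative values for 73 calls of named members on differentiation, 1380 kept direction and call and 134 kept direction and lost the call. Clustered genes called lower and higher on differentiation numbered 23 and 0 in WT female, 11 and 4 in RlimKO female and 44 and 0 in WT male cells. Members called between lines numbered, for undifferentiated cells, 4 (WT female and male) and 6 (RlimKO female and male). For differentiated cells they numbered 0 (RlimKO and WT female), 28 and 42, and for the change on differentiation 0, 8 and 19, in the same order. RLE scaling gave 5 in place of the 8. Without Rn45s and Lars2 the differentiated female comparison gave 1 and the 8 became 5. With no filter 1 clustered gene rose in WT male cells, the 4 and 6 became 8 and 14, the differentiated female comparison gave 5, and the 8 and 19 became 19 and 30. With a stricter filter (minimum count 50) 1 clustered gene rose in RlimKO female cells, the differentiated female comparison gave 1 and the 19 became 12. DESeq2 gave 7 lower and 2 higher clustered genes in RlimKO female cells, 1 member in the differentiated female comparison and 12 in place of the 19. Among named calls, it lost Hist1h1b, Hist1h2aa, Hist1h2bc, Hist1h3d, Hist1h4a and Hist2h2ab in RlimKO female cells. It also lost Hist1h1t, Hist1h2ak, Hist1h2bg, Hist1h4k and Hist1h4n in WT female and Hist1h1t, Hist1h2bb and Hist1h4j in WT male cells. The libraries compared alone gave 1 rising gene in WT female cells, 14 and 19 for undifferentiated lines, 22, 0 and 0 for differentiated lines, and 6, 0 and 6 for the change. Without both libraries of extreme Rn45s share, 1 gene rose in WT female and 2 in WT male cells, 21 fell in RlimKO female cells, 11 and 20 were called for undifferentiated lines, 11 for the differentiated female lines, and 4 and 24 for the change in the first pairs of lines. With Rn45s as a covariate, 29 fell and 2 rose in WT male cells, and line comparisons gave 3, 5 and 12 in differentiated cells and 3 and 10 for the change against the male line. The cause of these differences was not tested. Leaving out 1 library gave 10 to 32 lower and 0 to 1 higher clustered genes in WT female, 1 to 20 and 0 to 6 in RlimKO female, and 35 to 47 and 0 to 2 in WT male cells. For lines it gave 0 to 15 and 1 to 20 (undifferentiated against male), 0 to 14, 5 to 49 and 20 to 54 (differentiated), and 0 to 6, 0 to 35 and 5 to 41 (change). A log2 ratio of summed levels of -0.98 and -0.57 in WT and RlimKO female cells stood beside medians of -0.70 and -0.28 over genes. Correlations of library deviations between same-numbered libraries ran from -0.07 to 0.10 over 15 pairs of groups. These values show no strong effect shared by same-numbered libraries. They cannot decide whether such libraries were prepared together, since each group gives only 1 difference between its libraries. A fit with the replicate block gave 22 lower genes in WT female, 10 in RlimKO female and 44 in WT male cells, and no count changed by over 1.5 times. Depth limits the scarce members: 5 clustered genes with counts could not be tested.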

Other observations

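Clustered H2A and H2B genes often lie head to head. By the GENCODE positions 13 such pairs had starts 172 to 305 bases apart on opposite strands, and both genes were tested in 7 of them, among them Hist1h2ae with Hist1h2bg, Hist1h2ac with Hist1h2bc, and Hist1h2ak with Hist1h2bn. The 7 include Hist3h2a with the pseudogene Hist3h2bb-ps. Among the promoters found, the octamer letters stood in both promoters of 3 pairs and in at least 1 promoter of 6. The promoter windows of a pair can overlap and were searched on both strands, so a match in both may be the same site. Whether the genes of a pair changed together was not tested.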
